A study of Rattus norvegicus with 80 samples.

Results

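Tumors of 2 Nf1-mutated rat lines, named IF and PS in the labels, were compared by RNA sequencing. The comparison took the 5 libraries labelled as IF tumors and the 9 labelled as PS tumors, 14 of the 80 libraries of the series. The other libraries are 9 tumors of another mutated line, named IFPS, and 57 libraries of normal tissue: whole mammary pads, mammary epithelial cells (MECs), fibroblasts and adipocytes of wildtype rats and of the 3 lines. They were used here to describe the genes that differed. The labels give the line as the genotype and the tissue as tumor. They state neither the alleles, the age nor any treatment, and they do not say how many animals the tumors came from, so p-values measure the spread between these libraries. RNA of tumors and pads was taken from fresh tissue, while the extraction protocol describes the epithelial cells and fibroblasts as cultured. The series text instead calls the normal cell types flow sorted, so how much time these cells spent in culture is not known. Tumors are numbered within a line in accession order, and the numbers carry no pairing.

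Nf1 encodes neurofibromin, a protein that speeds the hydrolysis of GTP by Ras and so keeps Ras signaling low. Its loss leaves more Ras in the active form, which drives growth through the MAPK and PI3K pathways. The mammary gland is a ductal epithelium embedded in a pad of fat and fibrous stroma, so a library of whole tumor or whole pad sums the RNA of several cell types. In such bulk samples, fewer cells of a type and less RNA per cell cannot be told apart. The genes are given by Ensembl rat identifiers without names. Of the 32883 identifiers, 0 matched a symbol in the reference table, so the level of Nf1 and named markers of tumor or cell type were not analysed here.

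The libraries of both lines were alike in depth. IF tumors held 18108237 to 24139342 counts and PS tumors held 17344717 to 25475127 (exact permutation test over 2002 splits, two-sided p of the means = 0.691). The number of identifiers with a count was 18890 ± 199 (SD, n = 5) in IF tumors and 18940 ± 222 (SD, n = 9) in PS tumors (exact permutation p = 0.662). No pair of tumors of a line agreed within sampling noise, since the lowest chi-square per degree of freedom was 77.1 over 10 pairs of IF tumors and 53.4 over 36 pairs of PS tumors.

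Libraries of both lines varied among themselves, and 3 of them stood apart by their correlation with the other tumors of both lines. The Spearman correlation over the tested genes was 0.886 to 0.975 between IF tumors (median 0.932), 0.893 to 0.979 between PS tumors (median 0.954) and 0.826 to 0.965 between a tumor of each line (median 0.934). IF tumor 2 had the lowest median correlation with the 13 others, at 0.872, followed by IF tumor 1 at 0.909 and PS tumor 8 at 0.913. These medians include tumors of the other line, so they are not independent of the difference between the lines. IF tumor 1 had a median of 0.932 with the other IF tumors and 0.900 with the PS tumors. IF tumors 3 to 5 had at least 0.9458 and 0.9379. These correlations describe the libraries, which share the genes measured. The counts and gene groups that rest most on these 3 tumors are also given without them. The fit without them was added after the data were seen and left 3 IF and 8 PS tumors.

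The first principal component of log2 CPM (the counts of a gene over the TMM-scaled library total) took 30.8% of the variance. All 5 IF tumors lay on its negative side, from -10.3 to -133, and 8 PS tumors lay on its positive side, from 6.95 to 69.4. PS tumor 8 lay among the IF tumors on this axis, at -23.2, and at the far end of the second component, at -91.4. Among IF tumors the median gene had an SD of 0.390 in log2 CPM and among PS tumors 0.345, and 56.2% of genes had the larger SD in IF. Without IF tumor 2 the IF value was 0.301 and the share 40.7%, so the IF spread was the wider only with that library. No PS tumor was left out here, and the lines differ in number of libraries, so this comparison is uneven.

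**Figure D1:**
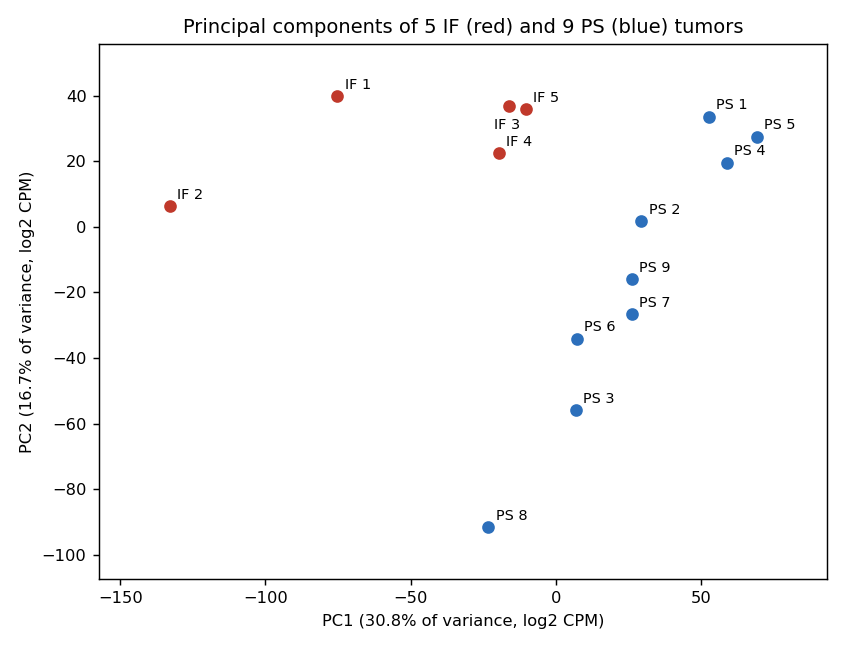
Each point is 1 tumor library, placed by its first and second principal component of log2 CPM, with IF tumors in red and PS tumors in blue. The IF tumors lie to the left of 8 of the 9 PS tumors, IF tumors 1 and 2 lie farthest left, and PS tumor 8 lies lowest.

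A few very abundant transcripts filled a larger part of the IF tumor libraries than of the PS tumor libraries. The most abundant gene of a library held 2.78%, 11.5%, 2.26%, 4.96% and 2.73% of the counts in IF tumors 1 to 5, and 1.15% to 1.94% in the 9 PS tumors (median 1.40%). All 5 IF tumors lay above all 9 PS tumors, with means of 4.85% ± 3.87 (SD, n = 5) and 1.44% ± 0.261 (SD, n = 9). The 10 most abundant genes held 9.70% to 26.9% of counts in IF tumors and 4.83% to 8.87% in PS tumors, again without overlap and with a difference of means of 8.38 percentage points. Both differences had an exact two-sided permutation p of 5e-04, the smallest that 2002 splits can give, and 0.000999 after Benjamini-Hochberg adjustment over 4 library measures. IF tumor 2 set the upper end of both ranges, and the groups do not overlap without it either.

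**Figure D2:**
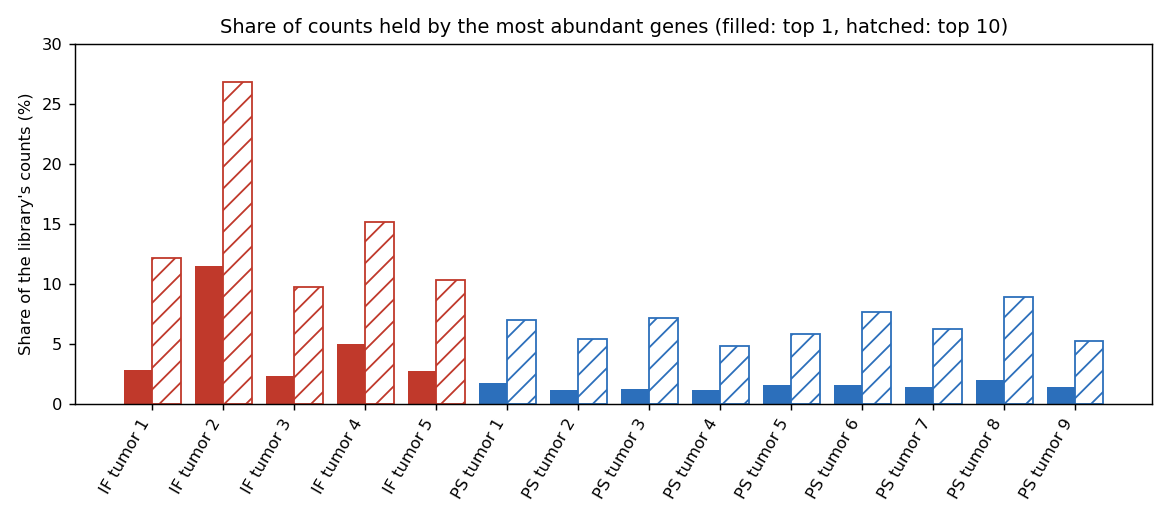
Bars give the percentage of a library's counts held by its most abundant gene (filled) and by its 10 most abundant genes (hatched), for the 5 IF tumors in red and the 9 PS tumors in blue. The top gene took 2.26% to 11.5% of counts in IF tumors and 1.15% to 1.94% in PS tumors.

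In all 5 IF tumors the most abundant gene was ENSRNOG00000039326. Its level was 23190, 134300, 18650, 43760 and 22640 CPM in IF tumors 1 to 5. In the 9 PS tumors it ranged from 0.176 to 75.7 CPM with a median of 2.93, or 4 to 2203 counts. Every IF tumor exceeded every PS tumor by more than 2 orders of magnitude. The fitted log2 fold change was 11.49 with an SE of 1.70, and the adjusted p of edgeR's quasi-likelihood test was 0.00255. Leaving out any 1 tumor kept the fold change between 10.65 and 12.29 and the adjusted p at 0.0058 or less.

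The same gene was present at lower and scattered levels in other tissue of the series. IFPS tumors ranged from 0 to 7294 CPM, and 5 of 9 reached 5 CPM. Pads held 0.420 to 14.7 CPM in IF rats, 10.5 to 521 CPM in PS rats and 5.28 to 1315 CPM in wildtype rats. MECs held at most 2.88 CPM and fibroblasts at most 0.0519 CPM, below the upper range of the pads. IF adipocytes held 2.36, 3.45 and 232 CPM, and PS adipocytes at most 1.46 CPM, with an adjusted p of 0.00914 in edgeR's test of the lines within adipocytes. IF adipocytes 9, the library at 232 CPM, also had mean log2 levels of 1.71 for MEC-enriched and 1.10 for pad-only genes (groups defined below), against at most -0.177 and -0.107 in PS adipocytes, and their part in this difference was not tested.

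ENSRNOG00000056092 separated the 2 lines of tumors with the smaller spread. Its level was 104, 77.9, 25.04, 69.0 and 43.3 CPM in IF tumors 1 to 5 and 0 to 0.264 CPM in PS tumors, where it had between 0 and 6 counts per library. A library with 0 counts allows up to 3 counts, which is 0.108 CPM in PS tumor 2. The log2 fold change was 9.54 ± 0.58 (SE), with an adjusted p of 1.69e-06 by edgeR. The transcript was low elsewhere, since its highest level in the 57 normal libraries was 2.35 CPM, and 1 of the 9 IFPS tumors, at 8.76 CPM, reached 5 CPM.

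In the opposite direction, ENSRNOG00000013593 had few or no counts in IF tumors. IF tumors 1 to 5 held 0.0346, 0, 0, 0.363 and 0.274 CPM, from 0 to 8 counts, and the 3 counts that a count of 0 allows are 0.155 CPM in IF tumor 2 and 0.118 CPM in IF tumor 3. PS tumors held 4.64 to 430.7 CPM with a median of 69.5. The lowest PS tumor lay above the highest IF tumor, which the rule for printed genes required, and the PS tumors differed widely among themselves. The log2 fold change was -9.68 ± 1.54 (SE), with an adjusted p of 0.00341 by edgeR. Pads of both lines held the transcript, at 6.65 to 8.31 CPM in IF rats and 7.60 to 35.7 CPM in PS rats, whereas MECs held at most 0.542 CPM. In the IFPS line 7 of 9 tumors reached 5 CPM, up to 299.6 CPM, and IFPS tumors 8 and 9 had no counts.

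ENSRNOG00000027432 was also lower in IF tumors, and unlike the previous gene it was abundant in MECs. It held 0.0692, 0.0517, 0.314, 0.136 and 1.42 CPM in IF tumors 1 to 5 and 1.48 to 122 CPM in PS tumors, with a median of 23.2. The highest IF tumor and the lowest PS tumor were close, and the rule for printed genes required that the ranges did not overlap. The log2 fold change was -6.61 ± 1.33 (SE), with an adjusted p of 0.0106 by edgeR. MECs of both lines held it at similar levels, with means of 33.1 CPM in IF and 42.3 CPM in PS, and a log2 difference of -0.35 ± 0.29 (SE) that did not pass the test (adjusted p = 0.735 by edgeR). Without IF tumors 1 and 2 and PS tumor 8 the tumor difference was -6.11 and its adjusted p of 0.057 no longer passed.

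**Figure D3:**
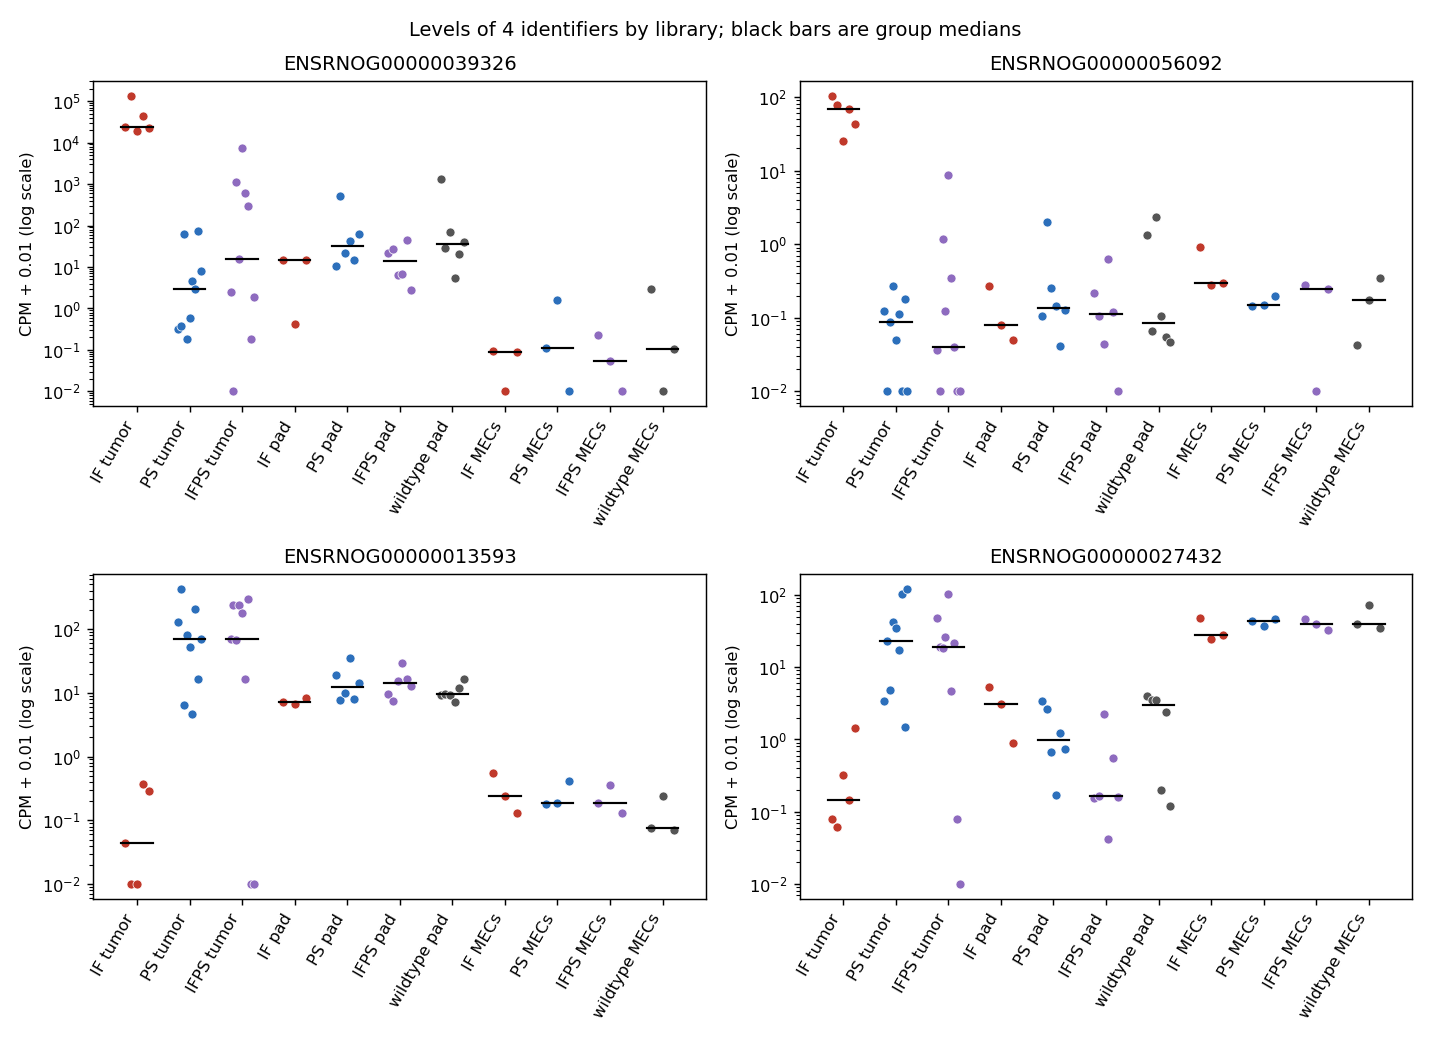
Each panel is 1 gene, each point 1 library and each black bar a group median, in CPM + 0.01 on a log axis, so that a library without counts sits at 0.01. By the choice of the genes, the red IF tumors lie above the blue PS tumors in the upper panels and below them in the lower panels. The purple IFPS tumors lie below the IF tumors in the upper panels and spread over both ranges in the lower panels.

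Across all genes, 1198 of 15246 tested genes (7.86%) differed between the tumors of the 2 lines at an adjusted p under 0.05. Of these, 783 (5.14% of tested genes) were higher in IF tumors and 415 (2.72%) were lower. The median log2 fold change over all tested genes was -0.02, a value near 0 that TMM scaling favors by design. The TMM factors were 0.698 in IF tumor 2, 0.926 to 0.996 in the other IF tumors and 0.999 to 1.08 in PS tumors. Without the 3 tumors that stood apart 302 of 15502 genes passed (1.95%), 233 higher (1.5%) and 69 lower (0.445%), of which 272 were among the 1198. Leaving out IF tumor 1 or IF tumor 2 alone lowered the count to 694 or 697.

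The genes that were higher in IF tumors included many with large differences. The median log2 fold change of the 783 was 1.20, and 267 of them differed at least 4-fold and 100 at least 16-fold. The median of the 415 lower genes was -0.98, with 65 at least 4-fold and 18 at least 16-fold lower. In the fit without the 3 tumors that stood apart, 100 of 233 higher genes differed at least 4-fold and 41 at least 16-fold, against 13 and 3 of 69 lower genes. In 252 of the 783 higher genes (32.2%) and 180 of the 415 lower genes (43.4%) the IF and PS tumors did not overlap. Over all tested genes 262 (1.72%) had all IF tumors above all PS tumors and 209 (1.37%) had all below.

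The genes with the next largest fold changes toward IF were taken by the same rule as those printed. It asks for no overlap between IF and PS tumors, so a gap was fixed by the choice. The next gene after those printed lay between 19.4 and 184 CPM in IF tumors, at 0.690 CPM or less in PS tumors, at 2.35 CPM or less in IFPS tumors and at 0.647 CPM or less in all normal libraries. The one after it was far more abundant, at 1323 to 9838 CPM in IF tumors against 0 to 135 CPM in PS tumors. Farther down the gap was narrow for some genes. The lowest IF tumor held 0.862 CPM and the highest PS tumor 0.742 CPM of the gene ranked 7. For the gene ranked 11 these levels were 0.499 and 0.359 CPM. Among the 783 higher genes 14 had a mean of at least 1000 CPM in IF tumors, against 3 of the 415 lower genes in PS tumors.

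The higher genes held a larger part of the IF tumor libraries than of the PS tumor libraries. The 783 genes held 16.4%, 35.6%, 11.8%, 17.7% and 11.6% of counts in IF tumors 1 to 5, and 3.22% to 4.41% in PS tumors. The 14 abundant ones among them held 7.07% to 26.7% in IF tumors and 0.455% to 1.25% in PS tumors. The 415 lower genes held 1.27% to 2.85% in IF tumors and 4.73% to 5.84% in PS tumors. These shares describe genes that were chosen by the same contrast, and no test was made of them. In the 9 IFPS tumors, which took no part in the choice, the 783 genes held 3.44% to 12.1%, with IFPS tumor 5 the highest.

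To see which cell types the differing genes belong to, gene groups were built from libraries other than the 14 tumors. A gene counted as enriched in a cell type when wildtype libraries of that type held at least 4-fold more than each of the other 2 types and passed the test against each. A pad-only gene was at least 4-fold higher in wildtype pads than in each of the 3 isolated cell types. Levels of a group are the mean of log2(CPM + 0.5) over its genes, and counts below are set against the 7.86% of all tested genes that differed.

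MEC-enriched genes differed more often than genes in general, in both directions. Of 859 tested MEC-enriched genes 134 differed (15.6%), with 59 higher (6.87%) and 75 lower (8.73%) in IF tumors, and their median log2 fold change was -0.28. Their mean level was 2.84, 2.48, 3.15, 3.09 and 3.13 in IF tumors 1 to 5, and 2.995 to 3.25 in PS tumors. IF tumors 1 and 2 lay below every PS tumor, and the other 3 lay within the PS range. Both kinds of tumor were above the pads of their line, which held 2.27 to 2.48 in IF rats and 2.30 to 2.74 in PS rats, except that IF tumor 2 only reached the top of the IF pads. Of the called MEC-enriched genes 44% were higher, against 65.4% of all called genes. Without the 3 tumors that stood apart 27 were higher and 15 lower (64.3% higher, against 77.2% of all called genes), with a median of -0.10. Without IF tumor 1 the split was 45 higher and 34 lower (57% against 70.9%), and without IF tumor 2 it was 51 higher and 40 lower (56% against 71.6%). In each of these 3 fits the called MEC-enriched genes were more often higher than lower, and in all 4 fits a smaller share of them was higher than among all called genes, a difference that was not tested. The fit with IFPS tumors gave 23 higher and 10 lower, where 77.8% of all called genes were higher.

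By share of counts the order of the lines was the opposite. MEC-enriched genes held 7.51% to 11.9% of counts in IF tumors and 5.55% to 7.93% in PS tumors. The mean log2 level weighs each gene alike, while the share of counts follows the most abundant genes of the group.

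Fibroblast-enriched genes had more higher than lower calls in IF tumors. Of 259 tested 28 differed (10.8%), with 21 higher (8.11%) and 7 lower (2.70%), and a median log2 fold change of 0.19. Their level was 1.65 to 2.04 in IF tumors and 1.32 to 1.96 in PS tumors, with overlap, and the 2 highest IF values were those of IF tumors 1 and 2. Both ranges lay below the pads, at 2.51 to 2.78 in IF rats and 2.38 to 2.69 in PS rats. Of the called fibroblast-enriched genes 75% were higher, against 65.4% of all called genes. Without the 3 tumors that stood apart the median was -0.01, with 7 genes higher and 1 lower (87.5% higher, against 77.2%). Without IF tumor 1, or without IF tumor 2, 11 were higher and 1 was lower (91.7% higher, against 70.9% and 71.6%). These differences from all called genes rest on few genes and were not tested.

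Adipocyte-enriched genes had lower levels in the tumors of both lines than in pads, and the 2 lines of tumors overlapped. Adipocyte-enriched genes had a level of 1.98 to 2.40 in IF tumors and 1.86 to 2.92 in PS tumors, against 3.42 to 3.56 in IF pads and 3.08 to 3.60 in PS pads. Of 953 tested 66 were higher in IF tumors (6.93%) and 21 lower (2.20%), although their median log2 fold change was -0.25, or -0.08 without PS tumor 8 and -0.16 without PS tumor 3. In the main fit 75.9% of the called adipocyte-enriched genes were higher, against 65.4% of all called genes. With DESeq2 77 were higher and 83 lower, where 56.4% of all called genes were higher. With the 3 tumors that stood apart left out 23 were higher and 5 lower (82.1% higher, against 77.2% of all called genes). Pad-only genes had a level of 1.17 to 1.68 in IF tumors and 0.889 to 2.02 in PS tumors, against 1.62 to 2.57 in IF pads and 1.61 to 2.85 in PS pads. Of 804 tested 57 were higher (7.09%) and 17 lower (2.11%), so 77% of the calls were higher, against 65.4% of all called genes. The group as a whole leaned the other way, with a median log2 fold change of -0.38, or -0.16 without PS tumor 3. A positive fold change was found in 37.9% of its tested genes, against 47.1% of all tested genes. With those 3 tumors left out 20 were higher and 4 lower (83.3% higher, against 77.2%). These differences from all called genes were not tested.

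Pad-only genes were far apart by share of counts. They held 6.41%, 26.0%, 5.64%, 9.86% and 6.42% of counts in IF tumors 1 to 5 and 1.07% to 2.83% in PS tumors, without overlap. ENSRNOG00000039326 alone, which belongs to this group by its wildtype levels, held 2.26% to 11.5% of the IF tumor libraries. These shares include genes that the contrast itself selected, and no test was made of them.

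**Figure D4:**
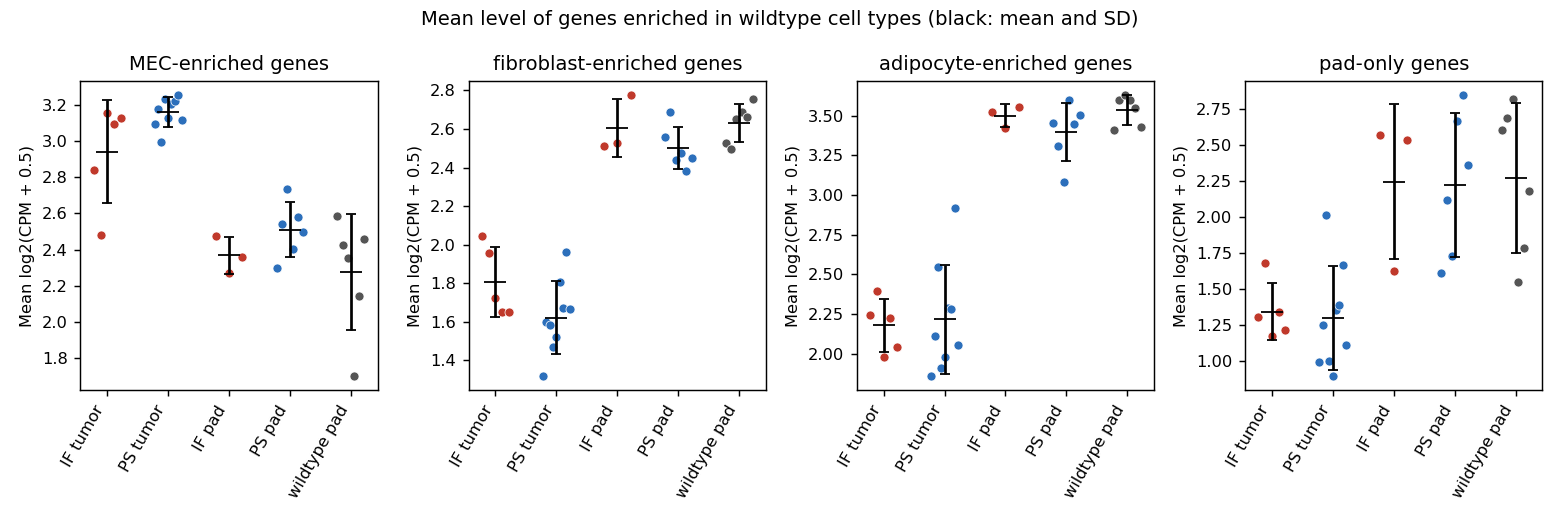
Points are libraries and black bars the mean and SD of the mean log2(CPM + 0.5) over MEC-enriched, fibroblast-enriched, adipocyte-enriched and pad-only genes, in IF and PS tumors and in IF, PS and wildtype pads. Each panel has its own vertical range. For MEC-enriched genes 13 of the 14 tumors lie above all pads shown, and IF tumor 2, at 2.48, lies among the pads. Tumors lie below pads for fibroblast-enriched and adipocyte-enriched genes, while the tumors of the 2 lines overlap in every panel.

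A further group came from the IFPS line, whose tumors took no part in the contrast. It holds 45 genes at least 2-fold higher in IFPS tumors than in IFPS pads that also passed the test. All 45 were tested between IF and PS tumors, and 7 were lower in IF (15.6%, against 2.72% of all genes) and 0 higher, with a median log2 fold change of -0.71. Their level was 3.38, 3.11, 4.12, 4.35 and 3.79 in IF tumors 1 to 5 and 4.20 to 4.72 in PS tumors, against 3.02 to 3.18 in IF pads and 2.82 to 3.06 in PS pads. Only IF tumor 4 reached the PS range, and IF tumors 1 and 2 lay nearest to the pads. Without the 3 tumors that stood apart the median was -0.30 and 1 gene was lower, and without IF tumor 1 or IF tumor 2 alone 2 or 3 were lower. The 190 genes lower in IFPS tumors than pads were low in both lines, at 1.68 to 2.003 in IF tumors and 1.26 to 3.56 in PS tumors, where PS tumor 3 was the highest. Of 154 tested 3 (1.95%, against 5.14% of all genes) were higher in IF tumors and 0 lower (against 2.72%). Their median log2 fold change was -0.37, and 27.9% had a positive value, against 47.1% of all tested genes. Without PS tumor 3 the median was -0.09, with 9 genes higher and 0 lower. In that fit 650 of all 15158 tested genes were higher and 366 lower, so 64% of all called genes were higher.

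The differing genes were also counted by the wildtype tissue in which each was most abundant. Of 3018 tested genes most abundant in MECs 90 were higher in IF tumors (2.98%) and 120 lower (3.98%), the one tissue with more lower than higher genes. Of 4015 genes most abundant in pads 252 were higher (6.28%) and 108 lower (2.69%). Fibroblasts had 187 higher (6.01%) and 80 lower (2.57%) of 3110, and adipocytes 183 higher (4.65%) and 91 lower (2.31%) of 3932. Of 1171 genes below 1 CPM in every wildtype tissue 71 were higher (6.06%) and 16 lower (1.37%). Without the 3 tumors that stood apart the genes higher and lower numbered 22 and 19 for MECs and 89 and 15 for pads. They numbered 46 and 19 for fibroblasts and 44 and 15 for adipocytes, against 233 and 69 over all tested genes.

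Some genes that were low in every normal library reached higher levels in tumors. Of 17041 identifiers below 1 CPM in all 57 normal libraries, 138 reached 5 CPM in at least 1 of the 14 tumors. Most were private to 1 tumor (94 of 138). The number per library was 28, 49, 19, 25 and 12 in IF tumors 1 to 5 and 4 to 20 in PS tumors. In all, 76 were found in IF tumors only, 48 in PS tumors only and 14 in both lines, although PS had more tumors in which to find them. Without the 3 tumors that stood apart 27 were found in IF tumors only, 36 in PS tumors only and 12 in both. These came from 3 IF and 8 PS tumors, so they cannot show whether the larger IF number rested on IF tumors 1 and 2. Those seen in at least 2 tumors of a line and in none of the other numbered 21 for IF and 9 for PS, and 9 for each line without the 3 tumors. The gene described above with at most 0.690 CPM in PS tumors was the one such gene on in all 5 IF tumors, and it was on in no PS or IFPS tumor. The filter on low counts lets such a gene into the test only where some tumors hold it, so 61 of the 138 were tested and no count of calls among them is given.

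Genes private to 1 tumor, defined as at least 5 CPM there and at least 8-fold above each of the other 13, were unevenly spread. IF tumor 2 had 195 of the 279. PS tumor 3 had 28, PS tumor 8 had 20, IF tumor 1 had 11, PS tumor 7 had 10, PS tumor 9 had 8, and each of the other 8 tumors had 0 to 2.

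IFPS tumors were nearer to PS than to IF tumors at most of the differing genes. By mean log2 level the IFPS tumors were nearer to the PS tumors in 558 of the 783 higher genes (71.3%) and in 288 of the 415 lower genes (69.4%). Their mean lay between the lines for 750 of the 1198 genes, beyond the PS mean for 363 and beyond the IF mean for 85. Single IFPS tumors differed widely. IFPS tumors 1 and 2 were nearer to PS in 92.8% and 92.3% of the higher genes, and IFPS tumor 6 in 49.3%. IFPS tumors 8 and 9 were nearer to PS in 37.8% and 41.9% of the lower genes. The MEC-enriched level was 1.38, 0.769 and 0.295 in IFPS tumors 6, 8 and 9. It was 3.03 to 3.16 in IFPS tumors 1 to 5 and 7, and its part in these shares was not tested. The genes were chosen for a difference between the same IF and PS tumors, so the shares are a description. Without IF tumors 1 and 2 and PS tumor 8 the shares were 85.0% of 233 higher genes and 60.9% of 69 lower genes.

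Set against the pads of the same line, the differing genes included both genes away from the pads in IF tumors and genes away from them in PS tumors. Of the 783 genes higher in IF tumors, 207 (26.4%) were at least 2-fold above the pads in IF tumors and within 2-fold of the pads in PS tumors, against 3.99% of all tested genes. Another 105 (13.4%, against 1.94%) were at least 2-fold below the pads in PS tumors and within 2-fold in IF tumors. For 359 (45.8%, against 73.2% of all tested genes) both tumors lay within 2-fold of their pads. Of the 415 lower genes 104 (25.1%, against 3.40%) were raised in PS tumors alone and 72 (17.3%, against 4.29%) were reduced in IF tumors alone. With the 3 tumors that stood apart left out, the first 2 shares were 38.6% and 12.4% of 233 higher genes, and the shares of the 69 lower genes were 26.1% and 17.4%. The choice of the genes fixes their direction between the lines, and these shares are a description.

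Between pads of the 2 lines no gene passed edgeR's test. Each line had fewer pads than tumors, so the counts of pads and tumors cannot be compared directly. Of 16384 genes tested between 3 IF and 6 PS pads 0 passed (0%) with edgeR, while 1167 had an unadjusted p under 0.05 and DESeq2 called 29. At the genes higher in IF tumors the median log2 fold change in pads was -0.02, and at those lower in IF tumors it was -0.05. The sign in pads was that of the tumors in 50.9% of the 1169 tumor genes measured there. Of the printed genes, ENSRNOG00000039326 had a pad difference of -4.25 ± 1.77 (SE, log2) and ENSRNOG00000056092 of -2.24 ± 1.41 (SE), opposite to the tumors. ENSRNOG00000013593 had -0.76 ± 0.43 (SE) and ENSRNOG00000027432 had 0.39 ± 0.95 (SE). Their adjusted p by edgeR was 0.674, 0.797, 0.752 and 0.963, in this order.

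Whether the line difference itself was different in tumors and in pads was tested by an interaction term. The fit also had a term for pads numbered 13 to 21 in their titles, which here only PS pads 19 to 21 carried. The pad difference in this fit therefore set IF pads 7 to 9 against PS pads 10 to 12. Of 16643 genes 119 passed (0.715%), 99 with a more positive (0.595%) and 20 with a more negative (0.12%) IF minus PS difference in tumors than in pads, and 2644 had an unadjusted p under 0.05. The count depended on single libraries. With pads numbered as in their titles, it was 2 without IF pad 7 or IF pad 9, 4 without IF pad 8, 8 without PS pad 12 and 18 without PS pad 11. It was 67, 68 and 73 without PS pads 19, 20 and 21, and 66, 47 and 78 without PS tumors 2, 4 and 7. It was 215 without IF tumor 5. ENSRNOG00000056092 had a difference of 12.08 ± 1.34 (SE, log2) with an adjusted p of 0.000264 by edgeR and passed in every fit that left out 1 library. ENSRNOG00000039326 had 15.73 ± 3.29 (SE) with an adjusted p of 0.0336, and ENSRNOG00000013593 had -8.94 ± 1.81 (SE) with 0.0309. Both of these calls were lost without any 1 of the 3 IF pads and without PS pad 11 or 12, the second also without PS pad 10. ENSRNOG00000027432, at -7.07 ± 1.78 (SE), did not pass (adjusted p = 0.0644 by edgeR). It passed without IF tumor 5 (0.0314), without PS tumor 8 (0.0438) and with DESeq2 (0.000552). These 4 genes were chosen for their difference between the same tumors, so a large tumor minus pad difference was favored by the choice. For ENSRNOG00000039326 and ENSRNOG00000056092 the opposite difference in pads also enlarged the value.

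**Figure D5:**
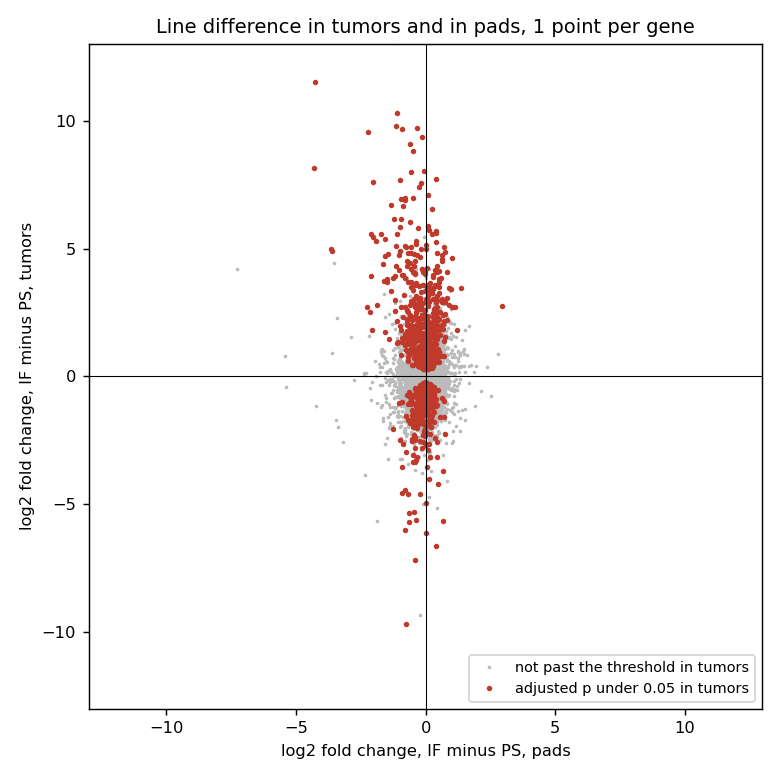
Each point is 1 gene measured in both fits, with the log2 fold change of IF over PS in pads on the horizontal axis and in tumors on the vertical axis. Red points passed the test in tumors. They spread from top to bottom, with a median across of -0.02 for genes higher in IF tumors and -0.05 for those lower. The topmost point is ENSRNOG00000039326, at 11.49 in tumors and -4.25 in pads.

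In the isolated cell types the number of genes that differed between the IF and PS lines varied greatly. MECs had 10 of 14688 (0.0681%), with 4 higher in IF (0.0272%) and 6 lower (0.0408%). Fibroblasts had 663 of 13879 (4.78%), with 343 higher (2.47%) and 320 lower (2.31%). Adipocytes had 7534 of 14304 (52.7%), with 3991 higher (27.9%) and 3543 lower (24.8%). Genes of other cell types moved with that adipocyte difference: the MEC-enriched level was 0.502 to 1.86 in IF and -0.213 to -0.177 in PS adipocytes, the fibroblast-enriched level 1.82 to 2.30 and 0.854 to 0.928, and the pad-only level 0.577 to 1.10 and -0.164 to -0.107. Their part in the difference was not tested. Each cell type had 3 libraries per line, and leaving out any 1 fibroblast library gave 166 to 483 genes there, the fewest without PS fibroblasts 11. In fibroblasts 56 of 1000 tumor genes were called (5.60%, against 4.85% of all genes in both fits), which is 8.63% of the fibroblast calls, with 19 in the same and 37 in the opposite direction. In adipocytes 586 of 1041 were called (56.3%, against 53%), which is 8.09% of the adipocyte calls, with 244 in the same and 342 in the opposite direction. In MECs 1 of 1098 was called, in the opposite direction. The sign of the line difference was that of the tumors in 60.7% of tumor genes in MECs, 46.3% in fibroblasts and 42.8% in adipocytes.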

How the data were processed

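The authors deposited unnormalized whole read counts for each Ensembl rat gene, made with Trim Galore, STAR 2.5.2b and build Rnor_6.0, per the submitters' processing notes. The counting tool and its use of strand are not given in the sources used here, so genes that share reads with a copy, an overlapping or an antisense gene are uncertain. Libraries were poly(A) mRNA read as pairs, per the labels' protocols. Groups come from the line and tissue labels, and 0 columns lacked a sample.

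The 14 tumors were fitted in edgeR 4.0.16 (R 4.3.3) by its quasi-likelihood method, with TMM factors, filterByExpr and Benjamini-Hochberg adjustment, at an adjusted p under 0.05. Pads and cell types had a fit each over all 4 lines, and the interaction a fit of IF and PS tumors and pads. The pad fit and the interaction fit included a term for pads numbered 13 to 21 in their titles. The SE is the size of the log2 fold change divided by the square root of F. Printed CPM use TMM factors over all 80 libraries, and single library measures had an exact permutation test. The fits were also run on simulated counts with known changes, and the outcome is not given here. Alternatives were RLE size factors, no count filter, DESeq2 1.42.0, other sets of libraries in the fit, thinned counts and leaving out each library.

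The comparison and the gene lists were chosen with earlier results of these data known. The rule for printed genes asked for symbols, and its clause on several tissues found none, so the 2 highest and the 2 lowest fold changes are printed, among genes that passed, had no overlap between IF and PS tumors and had a mean of at least 5 CPM in the higher group. The symbol lists for pathways and cell types could not be used.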

Additional observations from a re-analysis of the deposited data

Results flagged for a closer look

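In 32 groups of 4 to 10 tumors, 5 held a library whose distance to its nearest neighbor was large against the range of the group, where the limit used is set so that about 1 in 20 groups of normally distributed values would pass it. CPM and counts of genes are skewed and come from the same tumors, so that rate may not hold for them. IF tumor 2 held ENSRNOG00000039326 at 134300 CPM, with the next IF tumor at 43760. It also held 195 private genes, with the next IF tumor at 11. IF tumor 5 held ENSRNOG00000027432 at 1.417 CPM, with the next at 0.3135. PS tumor 2 held ENSRNOG00000013593 at 430.7 CPM, with the next at 205.2. PS tumor 3 had a mean log2 level of 3.56 over the genes that were lower in IFPS tumors than in IFPS pads, with the next PS tumor at 2.14.

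For 3 of the 4 printed genes edgeR's interaction test of the IF minus PS difference between tumors and pads passed the threshold. The difference of the log2 fold changes was 15.73 for ENSRNOG00000039326 (adjusted p = 0.0336), 12.08 for ENSRNOG00000056092 (0.000264) and -8.943 for ENSRNOG00000013593 (0.0309). These genes were chosen for a large difference without overlap between the same tumors, so a large value was favored by the choice and is given as a description.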

How the results depend on the processing

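Directions held in every alternative run for the 4 printed genes, and the count of genes between tumors stayed within 1.5 times under RLE size factors (1209), no filter (1180) and thinned counts (1164). DESeq2 called 2276 (56.4% higher in IF, against 65.4%), a fit with IFPS tumors 396 (77.8%), and the fit without IF tumors 1 and 2 and PS tumor 8, added after the data were seen, 302 (77.2%). The cause of these shifts was not tested. For the interaction the count was 59 without a filter, 573 with DESeq2, 36 with IFPS libraries and 22 with pads numbered 1 to 12 only. With those pads ENSRNOG00000039326 and ENSRNOG00000013593 no longer passed (adjusted p = 0.0609 and 0.0549 by edgeR), and with IFPS libraries the first did not (0.118). For pads it was 29 with DESeq2 and 2 with pads numbered 1 to 12. For MECs it was 6 with RLE, 27 without a filter, 215 with DESeq2 and 6 with only IF and PS libraries. For fibroblasts DESeq2 called 1308. Leaving out 1 library gave 694 to 1437 for tumors, 2 to 215 for the interaction, 0 to 4 for pads, 3 to 12 for MECs, 166 to 483 for fibroblasts and 5896 to 9133 for adipocytes. Group medians moved by less than the spread between tumors in every fit that left out 1 library. No paired analysis was possible because the tumor titles carry no numbers shared between the lines, and the titles of IF and PS normal libraries share none.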
